A study of Salix linearistipularis with 24 samples.

Results

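Roots of female and male *S. linearistipularis*, a willow of saline-alkali soils, were compared in the absence of salt. The comparison used the 6 control libraries of the 24 in the series: 3 from roots of female cuttings and 3 from roots of male cuttings, taken by their column names and labels. The libraries are total RNA from hydroponic roots. The labels describe control cuttings as kept in water, the paper as kept without NaCl, and the other 18 libraries are from cuttings of both sexes after 6, 12, and 24 h in 100 mM NaCl. No transgene or mutant was used in any group. When control roots were harvested relative to the 3 NaCl times is not stated. The labels describe 1 male and 1 female plant multiplied as cuttings, whereas the paper describes independent experiments with trees of several populations. If the labels hold, sex and individual plant cannot be told apart in any value below, and p-values measure only the spread between libraries, which may be technical. No sex-linked gene and no root cell marker is named in the sources, so the labels of sex and tissue were not checked against the data.

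Willows are dioecious, with male and female flowers on separate plants, and willow sex is inherited. Plant roots handle sodium in part through sodium/hydrogen antiporters of the NHX family, which exchange sodium or potassium for protons: NHX1 and NHX2 work at the vacuole, NHX6 at endosomes, and NHX7, known as SOS1 in *Arabidopsis*, at the plasma membrane, where it exports sodium. Ascorbate peroxidases (APX), which remove hydrogen peroxide, ferritins, which store iron, annexins, which bind membranes in the presence of calcium, and small heat shock proteins, which hold unfolding proteins, are other groups that plants use under stress.

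Values were FPKM, fragments scaled to the length of the transcript and to the mapped fragments of the library, so that levels are per length. The reads were assembled without a genome, and the table gives contigs grouped into clusters (CL numbers) and single unigenes. Summing contigs within each cluster gave 139844 genes for 253209 rows. FPKM summed to 705973 to 716878 in female and 715822 to 724512 in male control libraries. Numbers of reads are not given, and the relative depth estimated from the steps of low values lay between 1 and 1.08 with female control library 1 set to 1. Across genes, log2 values correlated at 0.974 to 0.983 between libraries of 1 sex and at 0.541 to 0.553 between a female and a male library, and genes share a library, so this is a description. The median coefficient of variation of genes of at least 10 FPKM was 4.67% in female and 4.23% in male control roots.

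Many genes differed between the sexes in control roots, and how many depended on the filter on low values. Of 51661 genes with at least 1 FPKM in at least 3 of the 6 libraries, 30432 (58.9%) were called, which required that limma gave an adjusted p up to 0.05 and that values of log2(FPKM + 0.5) differed by 1 or more. This scale understates the ratio of low genes. A large part of the tested genes passed the filter through 1 sex, with at least 1 FPKM in all 3 female and no male library (12509) or in all 3 male and no female library (7238), and the filter itself favours a difference in such genes. Of the called genes, 16968 (32.8% of genes tested) were higher and 13464 (26.1%) were lower in female roots. The log2 ratio reached 3 for 3627 genes and 5 for 393, and it was -3 or less for 1784 and -5 or less for 212. All 3 female libraries lay above all 3 male libraries in 42.4% of genes tested and below them in 40.9%. In bulk roots, fewer cells of a type and less RNA per cell cannot be told apart.

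The balance of the calls depended on the level of the genes. Among the 23656 genes with at least 1 FPKM in all 6 libraries, 34.3% were called, 3207 higher and 4909 lower in female roots, so that 39.5% of calls were higher, against 55.8% over all genes tested. Scaling the libraries by the median of ratios moved the median log2 ratio of all genes by 0.12, and 59.0% of calls were then higher.

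Rows that stood alone in the assembly were called more often than clusters at the same level. At a mean of at least 50 FPKM, 61.2% of single unigenes and 31.0% of clusters were called, and at 2 to 5 FPKM the shares were 63.4% and 60.0%. Among clusters of at least 10 FPKM, 47.3% of those with 2 contigs were called, against 24.5% of those with at least 10 contigs.

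**Figure D1:**
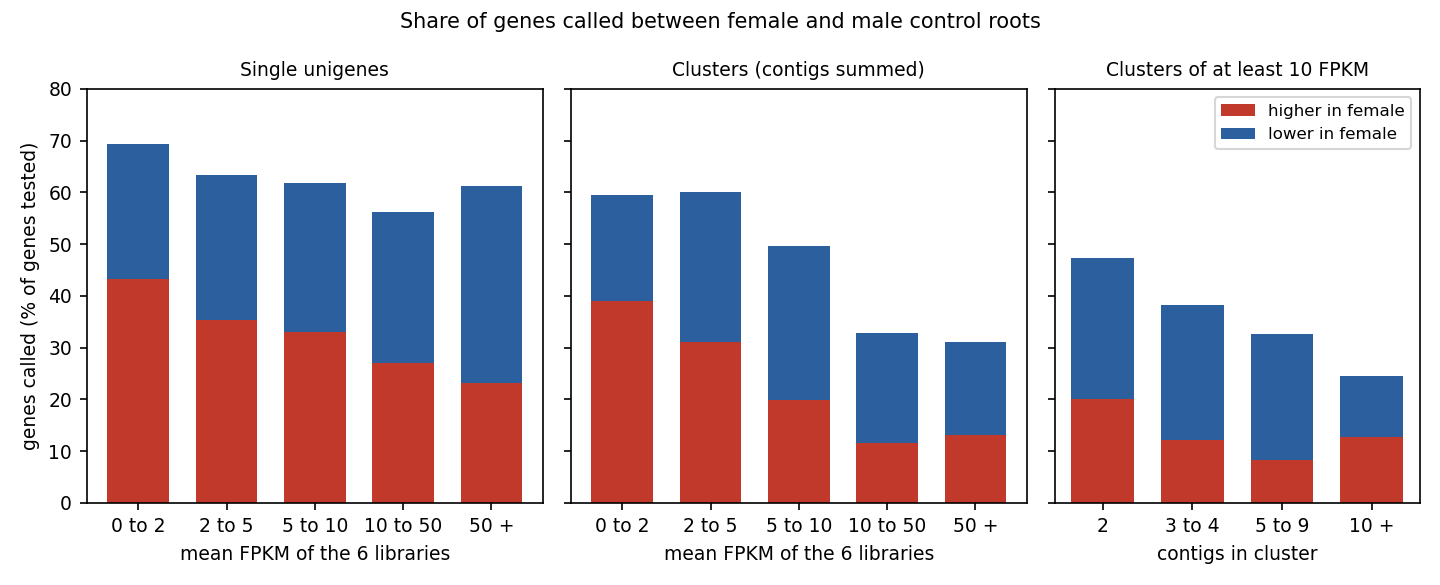
Percent of tested genes called higher (red, below) and lower (blue, above) in female than in male control roots, by mean FPKM of the 6 libraries for single unigenes and clusters, and by number of contigs for clusters of at least 10 FPKM. Clusters were called less often than single unigenes in all 5 bins, with 31.0% against 61.2% at 50 FPKM or more.

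Much of the difference lay between contigs of 1 cluster. As separate rows, 104455 contigs and unigenes were tested and 62.0% were called, 32653 higher (31.3%) and 32119 lower (30.7%). Of 7386 clusters that held at least 2 tested contigs and were not called as a sum, 3683 (49.9%) held contigs called in each direction. Of the 4474 such clusters called as a sum, 910 (20.3%) did. Clusters not called as a sum are favoured to hold contigs that cancel, so these shares are a description. The most abundant contig of a cluster was another one in 56.7% to 57.3% of clusters between a female and a male control library, in 11.7% to 12.4% between 2 female libraries, and in 10.7% to 11.2% between 2 male libraries, for clusters of at least 10 FPKM. Of the 6562 such clusters present at that level in all 6 libraries, 3724 had another leading contig in females than in males, and 3000 of these were not called as a sum.

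The 5 *NHX* genes differed from each other in which sex was higher. Of these 5 antiporters, CL9910 rose in female roots, CL7345 and CL3276 fell, CL2217 was not called, and Unigene43275 was called lower but was listed at 0 in female roots (58.9% of all genes tested were called). The study tables annotate CL9910 and CL3276 as sodium/hydrogen exchanger 1, Unigene43275 as exchanger 2, CL2217 as exchanger 6, and CL7345 as exchanger 7. The study's phylogeny numbers some of them otherwise, so identifiers are used here. The study chose these genes, like the other lists below, for their response to salt in these same libraries, so the lists are not independent of the samples. The primer pairs for quantitative PCR of CL9910, CL7345, and Unigene43275, a gene higher in female roots and 2 lower ones, are shown as the only sequences of these genes used here. The contigs they match were not determined. They are copied from the supplementary primer table and written in lower case, with no base singled out, and their positions in a genome are not given.
CL9910 forward: acctggcataatgtgactgaga
CL9910 reverse: ttccaaccataacaagacccag
CL7345 forward: atggggagtgcgatagaaaa
CL7345 reverse: caatgccgatgacgagaaga
Unigene43275 forward: gtcttatgcgtggtgctgtttc
Unigene43275 reverse: gactgtgtgagaaggggtgct

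CL9910 stood at 64.8, 67.0, and 65.5 FPKM in female control roots, against 32.0, 30.6, and 30.3 FPKM in male control roots. The groups did not overlap, and female roots were 2.12-fold higher (log2 ratio 1.07 ± 0.04 SE, adjusted p = 3.04e-07, limma). All 6 called contigs of this cluster, of 9 tested, were higher in female roots, but its most abundant contig alone had a log2 ratio of 0.91 and was not called.

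CL7345, annotated as exchanger 7, the sodium exporter of the plasma membrane, had the widest ratio of the 4 *NHX* clusters. It stood at 16.8, 17.7, and 16.2 FPKM in female control roots, against 64.2, 63.3, and 61.7 FPKM in male control roots. It fell by 1.87 ± 0.04 (SE) on the log2 scale in female roots, to 0.267 of the male mean (adjusted p = 7.61e-08, limma), and all 3 contigs tested were lower.

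CL3276 stood at 8.09, 7.70, and 8.91 FPKM in female control roots, against 19.9, 20.2, and 21.2 FPKM in male control roots. It fell by 1.27 ± 0.07 (SE) on the log2 scale in female roots (adjusted p = 2.54e-06, limma). Its contig 2 stood at 0.340 ± 0.115 FPKM in female and 8.81 ± 0.658 FPKM in male roots, while contig 6, the leading one in female roots, stood at 3.98 ± 0.635 and 2.09 ± 0.210 FPKM (SD, n = 3 each). The nearest protein match of CL3276 lay outside the willow family, in *Hevea brasiliensis*.

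Unigene43275 was listed at 0 in each female control library and at 1.44, 1.5, and 1.35 FPKM in male control libraries. It passed the filter through the male libraries alone, so its call is not support for a difference, and no ratio is given against a group listed at 0.

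CL2217 stood at 24.9, 25.9, and 25.4 FPKM in female control roots, against 19.1, 17.4, and 18.0 FPKM in male control roots. The groups did not overlap, but the log2 ratio of 0.47 ± 0.05 (SE) was under the threshold of 1 although the adjusted p was 7.50e-05 (limma). The sum hid contigs that went opposite ways. Contig 12, the most abundant over the 6 libraries, stood at 1.5 ± 0.410 FPKM in female and 9.22 ± 1.29 FPKM in male roots, and contig 15 at 7.52 ± 1.57 and 0.503 ± 0.682 FPKM (SD, n = 3 each). Of 9 contigs tested, 6 were higher and 2 were lower in female roots, and with contig 12 alone the log2 ratio of CL2217 was -2.29.

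**Figure D2:**
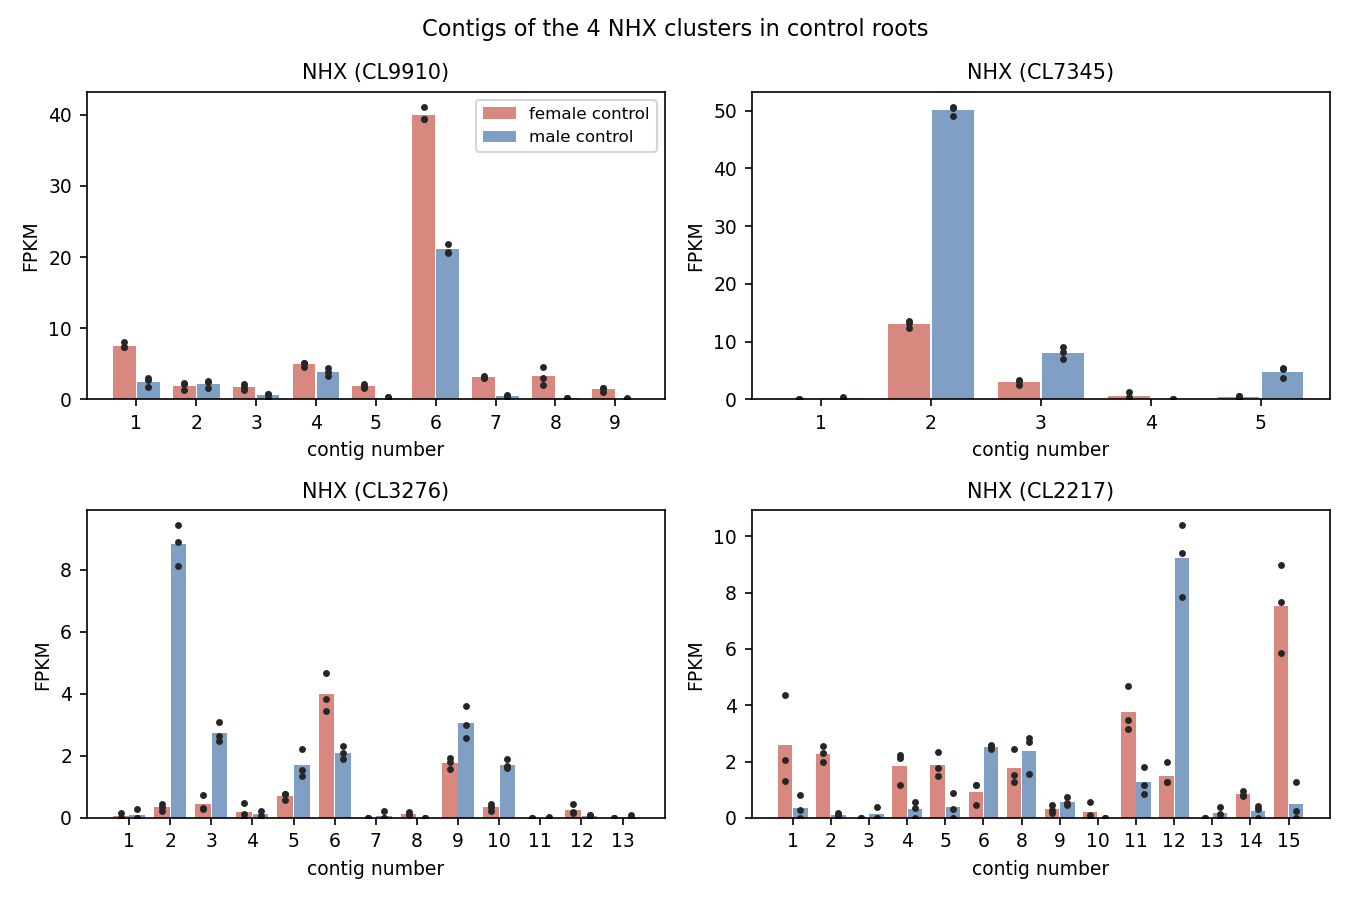
FPKM of each contig of the 4 *NHX* clusters in female (red, left) and male (blue, right) control roots. Bars are means of 3 libraries, and points are the libraries. Contig 2 led CL7345 in both sexes, whereas CL3276 and CL2217 had another leading contig in female than in male roots.

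The sum over the 5 *NHX* genes was 114.6, 118.3, and 116.0 FPKM in female control roots, against 136.8, 133.0, and 132.6 FPKM in male control roots. The sums differed less than the members, with a log2 ratio of -0.21, or -0.06 with scaled libraries (exact two-sided permutation test, p = 0.1, the smallest that 3 libraries against 3 can give). CL9910 made up 56.6% of this sum in female and 23.1% in male roots.

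*SlActin* CL19537, the reference gene of the quantitative PCR, was far from equal between the sexes. It stood at 335.9, 369.9, and 377.1 FPKM in female control roots, against 40.4, 37.6, and 61.1 FPKM in male control roots. Female roots were 7.78-fold higher (log2 ratio 2.98 ± 0.17 SE, adjusted p = 3.18e-06, limma). Male control library 3 was above the other 2 male libraries, and without it the log2 ratio was 3.19. Of 33 tested contigs of this cluster, 27 were higher and 2 were lower in female roots, and contig 33 stood at 41.1 ± 2.44 FPKM in female and 0.470 ± 0.0520 FPKM in male roots (SD, n = 3 each).

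The 2 lists of the study, 108 salt-responsive genes and 68 genes of the reactive oxygen response, hold 157 genes together. Of these, 108 passed the filter on low values, 8 were listed at 0 in all 6 libraries, and the rest of the 49 that did not pass were under it. Among those that passed, 36 were called higher and 24 lower in female roots (55.6%, against 58.9% over all genes tested), with a median log2 ratio of 0.00, against 0.01 over all genes tested. For the salt list alone the counts were 23 higher and 16 lower of 76 measured, and for the reactive oxygen list 13 higher and 10 lower of 38 (51.3% and 60.5%). Both lists held members called in each direction. The filter favours a difference in members that passed through 1 sex, so these counts are a description. Of all genes tested, 32.8% were higher and 26.1% lower.

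**Figure D3:**
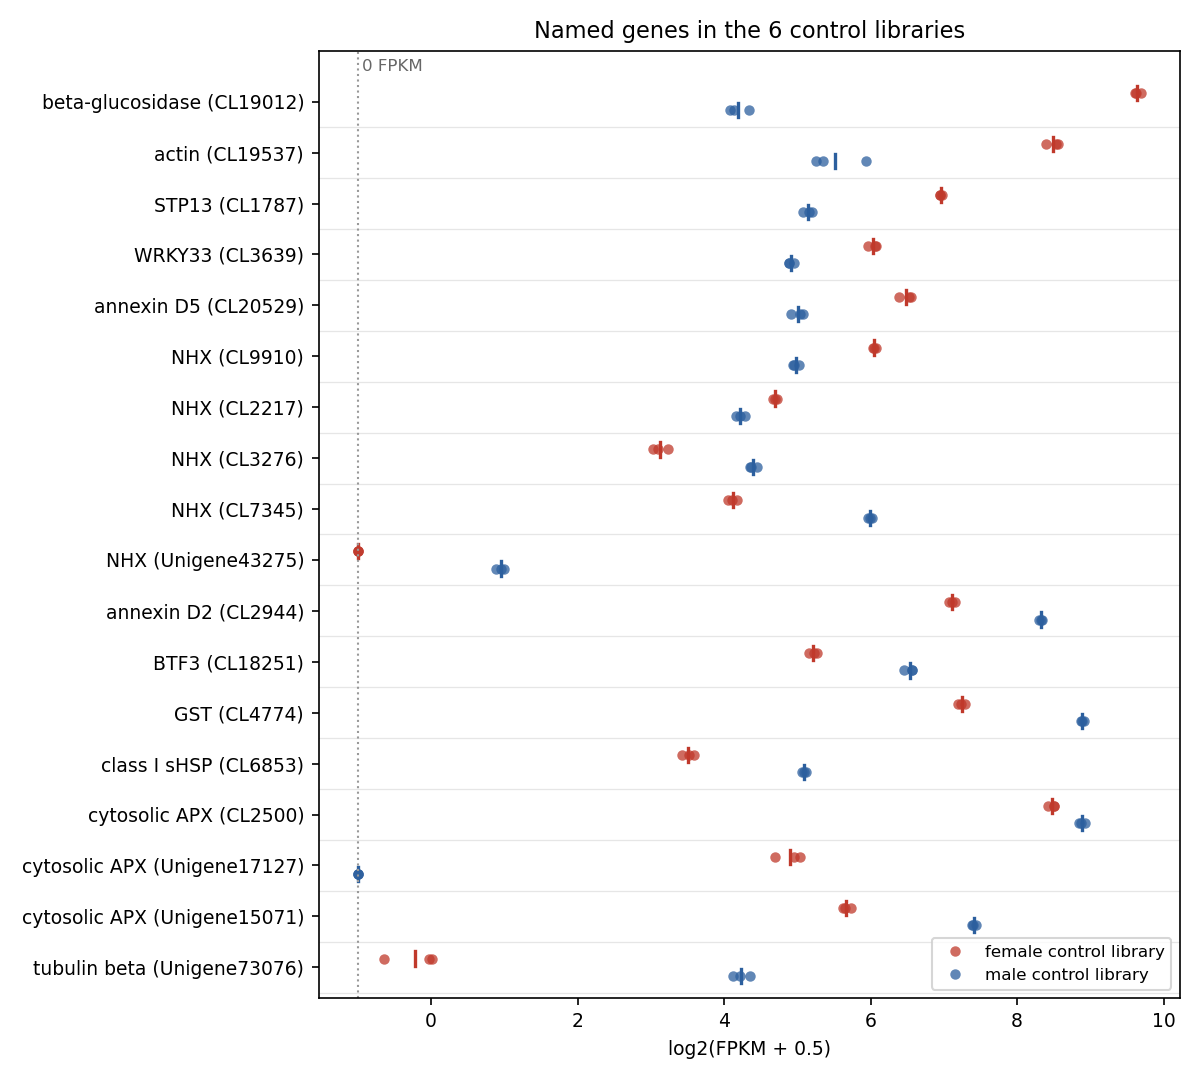
Level of 18 genes as log2(FPKM + 0.5) in the 3 female (red, upper) and 3 male (blue, lower) control libraries, with a bar at each group mean. The dotted line marks 0 FPKM. The groups did not overlap in any gene shown, from beta-glucosidase CL19012 (797 FPKM in female and 17.7 FPKM in male roots) to tubulin Unigene73076 (0.377 FPKM in female and 18.3 FPKM in male roots). Over all genes tested, all 3 female libraries lay above all 3 male libraries in 42.4% and below them in 40.9%.

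The beta-glucosidase CL19012 had the widest ratio of the list genes with at least 10 FPKM in both sexes. Beta-glucosidases cleave glucose from glycosides, among them stored hormones and defence compounds. CL19012 stood at 823, 783, and 785 FPKM in female control roots, against 19.8, 16.4, and 17.1 FPKM in male control roots. It was 44.9-fold higher in female roots (log2 ratio 5.45 ± 0.07 SE, adjusted p = 6.62e-09, limma), and all 44 tested contigs of its 65 were higher. Of the other 9 beta-glucosidases, 4 were listed at 0 in all 6 libraries, and only Unigene13449 passed the filter, with 3.25 FPKM in female and 0.02 FPKM in male roots. Unigene13449 passed through the female libraries alone, so its call is not support for a difference.

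Regulators and transporters with higher levels in female roots included *WRKY33* and *STP13*. *WRKY33*, a transcription factor of defence and stress responses, is represented by 2 genes, both called higher (32.8% of all genes tested were higher). With at least 1 FPKM required in all 6 libraries, 1 was called higher, where 34.3% of all genes so filtered were called in either direction. CL3639 stood at 66.6, 62.0, and 66.2 FPKM in female control roots, against 30.6, 29.0, and 29.1 FPKM in male control roots (log2 ratio 1.12 ± 0.04 SE, adjusted p = 5.42e-07, limma). The smaller Unigene26361 stood at 4.58, 6.96, and 5.14 FPKM in female roots, against 0, 2.45, and 0.4 FPKM in male roots. Its male libraries were far apart, and its log2 ratio of 2.44 was 1.88 without male control library 1 and 3.16 without male control library 2.

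*STP13* CL1787, a hexose transporter of the plasma membrane, stood at 125, 123, and 123 FPKM in female control roots, against 36.4, 33.3, and 35.2 FPKM in male control roots. It was 3.54-fold higher in female roots (log2 ratio 1.81 ± 0.04 SE, adjusted p = 4.84e-08, limma). Of 7 MYB genes, all measured, Unigene12477 (*KUA1*, a repressor of peroxidase genes in *Arabidopsis*) alone was called (14.3%, against 58.9% over all genes tested). It stood at 3.68, 3.67, and 3.88 FPKM in female and 0, 0, and 0.1 FPKM in male roots. Unigene12477 passed the filter through the female libraries alone, so its call is not support for a difference. The most abundant MYB gene, *MYB1R1* CL6070, stood at 54.4 ± 1.97 FPKM in female and 32.3 ± 1.24 FPKM in male roots (SD, n = 3 each) and was not called.

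Annexins were called in both directions. Of 10 annexins, 8 were measured, 4 higher and 1 lower in female roots (62.5%, against 58.9% over all genes tested), and with a mean of at least 10 FPKM 2 were higher. The lower one was annexin D2 CL2944, with 138.0, 133.9, and 141.6 FPKM in female control roots, against 315.0, 319.7, and 324.1 FPKM in male control roots (log2 ratio -1.21 ± 0.03 SE, adjusted p = 5.11e-08, limma). Annexin D5 was higher in female roots in 3 of its 5 measured genes, the most abundant being CL20529 with 91.2, 83.4, and 93.0 FPKM in female and 32.4, 29.5, and 33.3 FPKM in male roots (log2 ratio 1.48). Annexin D4 CL17084 was also higher, at 3.14, 5.13, and 4.28 FPKM in female and 0.390, 1.08, and 0.740 FPKM in male roots. The 7 annexin D5 genes together gave 147.8 ± 7.13 FPKM in female and 71.4 ± 1.5 FPKM in male roots (SD, n = 3 each, exact two-sided permutation test, p = 0.1, the smallest possible). Annexin D2 made up 43.2% of all annexin FPKM in female and 71.9% in male roots.

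Cytosolic APX genes were called in both directions, and 2 of them were listed at 0 in male roots. Of 30 genes, 16 were measured, 8 higher and 6 lower in female roots (87.5%, against 58.9% over all genes tested), 3 were listed at 0 in all 6 libraries, and 11 more were under the filter. With at least 1 FPKM required in all 6 libraries, 3 were higher and 1 lower, where 34.3% of all genes so filtered were called. Unigene17127 stood at 32.4, 30.4, and 25.5 FPKM in female control roots and Unigene16104 at 15.8, 14.9, and 13.1 FPKM, and both were listed at 0 in each male control library. The opposite held for Unigene15071, with 48.6, 52.5, and 49.9 FPKM in female roots, against 173, 167, and 168 FPKM in male roots (log2 ratio -1.74 ± 0.04 SE, adjusted p = 4.04e-08, limma). Unigene17865 had the smallest log2 ratio of FPKM + 0.5, with 0.213 ± 0.106 FPKM in female and 3.84 ± 0.0153 FPKM in male roots (SD, n = 3 each). Unigene17127, Unigene16104, and Unigene17865 each passed the filter through 1 sex alone, so their calls are not support for a difference. The most abundant member, CL2500, stood at 343.5, 363.2, and 361.7 FPKM in female roots, against 485.5, 458.3, and 468.9 FPKM in male roots. CL2500 was not called, with a log2 ratio of -0.40. Reads can be split between such similar unigenes, so single members are uncertain. Their sum was 550.1 ± 9.39 FPKM in female and 701 ± 15 FPKM in male roots (SD, n = 3 each, log2 ratio -0.35, or -0.21 with scaled libraries; exact two-sided permutation test, p = 0.1, the smallest possible).

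Peroxisomal-type APX genes were also called in both directions. Of 15 genes, 13 were measured, 4 higher and 2 lower in female roots (46.2%, against 58.9% over all genes tested). With at least 1 FPKM in all 6 libraries 1 was higher and 1 lower, where 34.3% of all genes so filtered were called. Unigene17812 was listed at 0 in each female control library and stood at 5.46, 8.56, and 7.18 FPKM in male control libraries. Unigene9500 had the highest log2 ratio of FPKM + 0.5, with 4.28, 3.77, and 4.07 FPKM in female and 0.540, 0, and 0.75 FPKM in male roots (log2 ratio 2.39). Unigene17812 and Unigene9500 each passed the filter through 1 sex alone, so their calls are not support for a difference. The most abundant member, Unigene21795, stood at 49.7 ± 2.32 FPKM in female and 55.8 ± 0.404 FPKM in male roots (SD, n = 3 each) and was not called. The sums were 90.8 ± 2.90 FPKM in female and 98.6 ± 0.809 FPKM in male roots (SD, n = 3 each), a log2 ratio of -0.12 that became 0.02 with scaled libraries.

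Ferritins summed to nearly equal levels in the sexes. The sum over 4 ferritins was 110.6 ± 0.425 FPKM in female and 113.8 ± 0.934 FPKM in male roots (SD, n = 3 each), with a log2 ratio of -0.04 that became 0.10 with scaled libraries. Behind it, CL4009 stood at 72.2 ± 0.904 FPKM in female and 47.9 ± 0.687 FPKM in male roots, and CL5890 at 32.7 ± 1.10 and 64.9 ± 1.25 FPKM (SD, n = 3 each). Neither was called as a sum, although the most abundant contig of CL4009 was called, with a log2 ratio of 3.20. Unigene5413, at 6.27, 4.54, and 5 FPKM in female and 0.430, 0, and 0 FPKM in male roots, was called higher. It passed the filter through the female libraries alone, so its call is not support for a difference.

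None of the 6 measured small heat shock proteins or the 4 nascent-chain factors was called higher in female roots, against 32.8% of genes tested. With so few members this is a description. Of 20 small heat shock proteins, 6 were measured and 2 were called lower (26.1% of all genes tested were lower; 1 of the 6 was called with scaled libraries and 1 with all 8 groups in the fit), with the class I gene CL6853 at 11.6, 10.2, and 11 FPKM in female control roots, against 34.3, 32.9, and 33.7 FPKM in male control roots (log2 ratio -1.58 ± 0.06 SE, adjusted p = 4.48e-07, limma). The most abundant one, the class II gene CL17724, stood at 142.1, 169.0, and 175.3 FPKM in female and 141.0, 149.9, and 147.9 FPKM in male roots. These groups overlapped. The mitochondrial chaperone *HSP70* CL4614 fell by 1.42 on the log2 scale in female roots, to 18.2 ± 0.533 FPKM, against 49.6 ± 1.20 FPKM in male roots (SD, n = 3 each).

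BTF3 binds growing protein chains at the ribosome. Of 4 such genes, CL18251 was called lower (25%, and 26.1% of all genes tested were lower). It stood at 38.1, 37.1, and 35.2 FPKM in female control roots, against 94.6, 87.2, and 94.4 FPKM in male control roots (log2 ratio -1.31 ± 0.05 SE, adjusted p = 3.99e-07, limma). CL3930 stood at 103 ± 1.85 FPKM in female and 201.5 ± 8.87 FPKM in male roots (SD, n = 3 each). Its log2 ratio of -0.97 was just short of the threshold, and its most abundant contig was called, with -1.57, so that 2 of the 4 were lower by leading contig. The sum of the 4 was 211 ± 2.09 FPKM in female and 405 ± 3.85 FPKM in male roots (SD, n = 3 each, log2 ratio -0.94; exact two-sided permutation test, p = 0.1, the smallest possible).

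**Figure D4:**
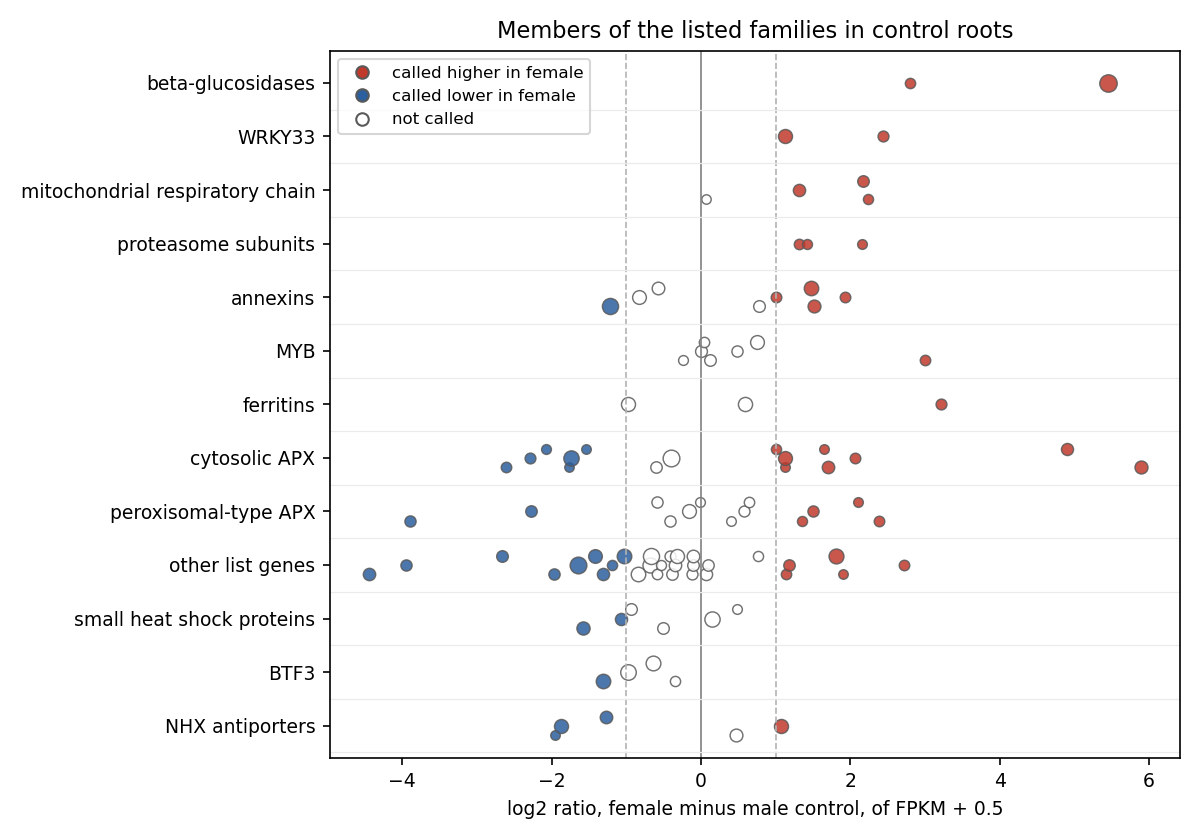
Log2 ratio of FPKM + 0.5, female minus male control roots, of each measured member of the listed families. Red members were called higher and blue ones lower in female roots, white ones were not called, larger circles are more abundant genes, and the dashed lines mark -1 and 1. Cytosolic APX members lay on both sides, from -2.62 to 5.90 (a gene listed at 0 in male roots), whereas both *WRKY33* genes lay above 1.

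Among the remaining 33 list genes, 29 were measured, 5 higher and 9 lower in female roots (48.3%, against 58.9% over all genes tested). The glutathione *S*-transferase CL4774, of a detoxifying enzyme family, stood at 149.8, 156.3, and 146.5 FPKM in female control roots, against 472.2, 469.0, and 479.5 FPKM in male control roots (log2 ratio -1.65 ± 0.03 SE, adjusted p = 1.86e-08, limma). The osmotic stress kinase *SAPK1* CL1315 stood at 6.73, 5.74, and 6.46 FPKM in female roots, against 15.3, 17.7, and 16.3 FPKM in male roots, and the water channel *PIP2* Unigene7100 at 1.29, 1.46, and 1.98 FPKM, against 7.56, 8.06, and 7.03 FPKM. Both were called lower in female roots. The RNA-binding protein *ARP1* CL3994 stood at 1.21 ± 0.323 FPKM in female and 10.3 ± 0.840 FPKM in male roots (SD, n = 3 each, log2 ratio -2.66).

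The pair of unigenes named phosphopantetheine adenylyltransferase, an enzyme of coenzyme A synthesis, was listed at 0 in opposite sexes. Unigene15132 was listed at 0 in each female control library and stood at 7.93, 7.5, and 6.27 FPKM in male control libraries. Unigene6569 stood at 1.19, 1.16, and 1.84 FPKM in female control libraries and was listed at 0 in each male control library. Each of the pair passed the filter only through the sex in which it was above 0, so this pattern is not support for a difference.

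Neither *cyclin L* gene was called, against 58.9% of all genes tested. CL2013 stood at 28.8 ± 0.985 FPKM in female and 30.7 ± 2.53 FPKM in male roots (SD, n = 3 each). The BAG co-chaperone CL12578 stood at 17.7 ± 1.70 FPKM in female and 17.9 ± 1.04 FPKM in male roots, while Unigene64280 of that family was higher in female roots, at 2.88 ± 0.903 and 0.0233 ± 0.0404 FPKM (SD, n = 3 each). Unigene64280 passed the filter through the female libraries alone, so its call is not support for a difference. Pro-hevein CL13878, a chitin-binding defence protein, stood at 445.9, 441.3, and 446.7 FPKM in female roots, against 439.1, 418.2, and 453.8 FPKM in male roots, and the groups overlapped. The chitinase *hevamine-A* CL8158 was called higher in female roots, at 108 ± 3.53 FPKM, against 52.6 ± 1.84 FPKM in male roots (SD, n = 3 each, log2 ratio 1.04).

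Some list genes are most like proteins of plants or microbes outside the willow family. Of 22 such genes, 16 were measured, 9 higher and 4 lower in female roots (81.2%, against 58.9% over all genes tested), and their summed level was 72.7 to 80.9 FPKM in female and 69.1 to 81.3 FPKM in male control libraries. They include, mostly with cork oak as the nearest match, all 5 genes of the mitochondrial respiratory chain and all 5 proteasome subunits. The *NHX* gene CL3276, nearest to a *Hevea brasiliensis* protein, is also among them. Of the respiratory chain genes, 4 were measured and 3 were higher (75%, against 32.8% of all genes tested). With at least 1 FPKM required in all 6 libraries 1 was higher, where 34.3% of all genes so filtered were called in either direction. Among the 3 was the cytochrome *c* oxidase subunit CL4869, at 17.1 ± 0.843 FPKM in female and 6.65 ± 1.26 FPKM in male roots (SD, n = 3 each). The ATP synthase subunit Unigene68158 stood at 2.71 ± 0.184 and 0.183 ± 0.0635 FPKM. Unigene68158 passed the filter through the female libraries alone, so its call is not support for a difference. The 3 measured proteasome subunits passed the filter mainly through female roots, and none was left to call with at least 1 FPKM required in all 6 libraries. CL2133 stood at 3.35, 2.59, and 5.16 FPKM in female and 2.06, 0.870, and 0.760 FPKM in male roots, and Unigene51500 stood at 1.77, 1.47, and 1.97 FPKM in female roots and was listed at 0 in male roots.

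Of these genes, 5 are most like proteins of algae or an oomycete. They summed to 7.5 to 8.94 FPKM in female and 1.20 to 2.65 FPKM in male control libraries. The RNA-binding protein CL17907, whose nearest match is an oomycete protein, stood at 3.97 ± 0.410 FPKM in female and 0.180 ± 0.114 FPKM in male roots (SD, n = 3 each). CL17907 passed the filter through the female libraries alone, so its call is not support for a difference. The tubulin Unigene73076, nearest to a clover protein, went the other way, with 0.14, 0.480, and 0.510 FPKM in female roots, against 20.0, 18.1, and 16.9 FPKM in male roots (log2 ratio -4.45). It passed the filter through the male libraries alone, so its call is not support for a difference. The part of RNA from other organisms in these differences was not tested. Without the genes matched outside the willow family, the salt list held 14 higher and 13 lower members of 61 measured (44.3%, against 58.9% over all genes tested).

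The largest differences in FPKM were in genes without a name in the study tables. CL19025 stood at 4176, 4232, and 3728 FPKM in female control roots, against 270.3, 292.8, and 307.4 FPKM in male control roots (log2 ratio 3.80 ± 0.06 SE, adjusted p = 1.72e-08, limma). CL16515 stood at 3131, 3149.8, and 3126 FPKM in female roots, against 565.0, 561.3, and 562.7 FPKM in male roots. Lower in female roots were CL1260, with 1008, 1097, and 1058 FPKM in female and 3928, 4198, and 4055.0 FPKM in male roots, and CL13414, with 588, 597, and 563 FPKM in female and 3204, 3215.0, and 3165 FPKM in male roots. All 4 had groups that did not overlap, as did most genes tested (42.4% with female libraries above male ones and 40.9% below). The most abundant contig of CL1260 alone had a log2 ratio of -0.91 and was not called.

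Over all genes, presence in 1 sex alone was more common for female roots. In 5406 genes all 3 female control libraries had at least 1 FPKM and all 3 male ones were listed at 0, and the reverse held for 1598 genes. At a minimum of 10 FPKM the counts were 329 and 120. Single unigenes made up 94.5% and 94.7% of the genes counted at 1 FPKM. Of the 5406 genes, 64.5% were also listed at 0 in all 9 male libraries under NaCl, and of the 1598 genes, 33.2% were also listed at 0 in all 9 female libraries under NaCl.

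Part of the control difference was present in libraries under NaCl, which share no library with the control comparison. At 12 h, 46.4% of the same 51661 genes were called between the sexes, at 24 h 24.7%, and at 6 h 6.37%. Of the 16968 genes higher in female control roots, 7986 (47.1%) were also called higher at 12 h, against 32.1% of all genes tested, and 5197 (30.6%) at 24 h, against 18.3%. Of the 13464 genes lower in female control roots, 4247 (31.5%) were also called lower at 12 h, against 14.3% of all genes tested, and 1810 (13.4%) at 24 h, against 6.47%. With scaled libraries 7565 genes were higher and 4317 lower at 24 h, against 9433 and 3343 without scaling. Of the genes higher in female control roots, 847 (4.99%) were called lower at 12 h, against 14.3% of all genes tested. At 24 h, 413 (2.43%) of them were called lower, against 6.47%. Of the genes lower in female control roots, 1264 (9.39%) were called higher at 12 h, against 32.1% of all genes tested. At 24 h, 1047 (7.78%) of them were called higher, against 18.3%. In the control and at 12 and 24 h alike, 4093 genes were higher and 1003 lower in female roots.

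At 6 h, 2622 genes (5.08% of genes tested) were called higher and 668 (1.29%) lower in female roots, and these counts were not stable. The male 6 h libraries stood apart, with a median SD of log2 values of 0.635, against 0.132 to 0.164 in the other 7 groups. Leaving out 1 of the 6 h libraries gave between 1546 and 4359 genes higher and between 138 and 1459 genes lower, the smallest counts without a female and the largest without a male library.

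Most genes tested were called as changed in their sex difference between control and NaCl roots, but the filter favours such calls. Genes were kept by their level in the same control libraries, where 12509 passed through female and 7238 through male libraries alone. A control difference is favoured in such genes, and with it a change away from that difference under NaCl. The shares below are therefore a description and not support for a change in most genes. Tested as a contrast over 12 libraries, the female minus male difference at 12 h differed from that in the control for 58.4% of genes (18079, or 35.0%, toward female and 12079, or 23.4%, toward male roots), and that at 24 h for 58.6% (16964, or 32.8%, and 13307, or 25.8%). The 2 tests share the control libraries. With scaled libraries the split turned round, with 12864 genes toward female and 14451 toward male roots at 12 h, and 12198 and 14866 at 24 h.

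The *NHX* genes differed in how their sex difference stood under NaCl. At 12 h, CL9910 stood at 42.0 ± 0.92 FPKM in female and 20.4 ± 0.729 FPKM in male roots (SD, n = 3 each), a log2 ratio of 1.02, whose change from the control of -0.05 ± 0.05 (SE) was not called (adjusted p = 0.390, limma). At 24 h its ratio was 0.56, and its change of -0.52 ± 0.0495 (SE, adjusted p = 1.98e-06, limma) was under the threshold of 1 but was -1.07 and called with scaled libraries (adjusted p = 5.53e-09, limma). CL7345 had log2 ratios of -1.18 at 12 h and 0.57 at 24 h, when it stood at 7.64 ± 0.416 FPKM in female and 4.99 ± 0.520 FPKM in male roots. Its change at 24 h of 2.44 ± 0.10 (SE) was called (adjusted p = 1.65e-09, limma).

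CL3276 had ratios of -0.11 at 12 h and -1.26 at 24 h, and its change at 12 h of 1.16 ± 0.08 (SE) was called (adjusted p = 1.09e-07, limma), but was 0.57 and not called with scaled libraries. CL2217 was called higher in female roots at 12 h, at 27.3 ± 1.06 FPKM, against 11.2 ± 0.844 FPKM in male roots (log2 ratio 1.25). Its change from the control of 0.78 ± 0.08 (SE, adjusted p = 4.4e-06, limma) was under the threshold of 1 and not called. Unigene43275 stood at 0.0900 ± 0.0520 FPKM in female and 3.09 ± 0.496 FPKM in male roots at 12 h (log2 ratio -2.60), and at 0.0600 ± 0.0600 and 0.103 ± 0.0961 FPKM at 24 h (SD, n = 3 each). Its change at 12 h of -0.65 was not called, but was -1.24 and called with scaled libraries. Unigene43275 passed the filter through the male control libraries alone, so its changes from the control are not support for a difference.

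**Figure D5:**
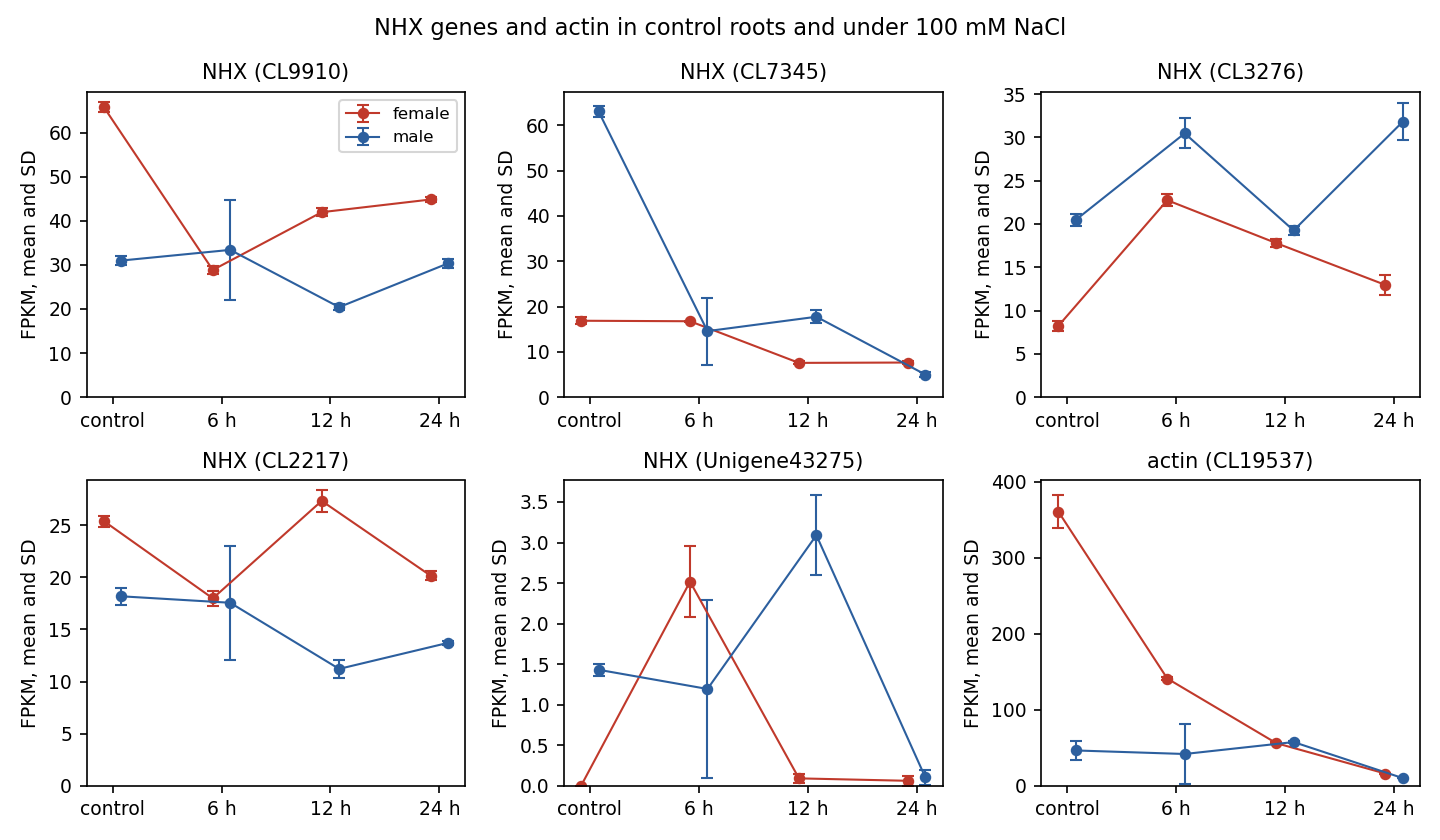
Mean FPKM of the 5 *NHX* genes and *SlActin* in female (red) and male (blue) roots in the control and after 6, 12, and 24 h of 100 mM NaCl, with SD of 3 libraries. CL7345 stood at 16.9 FPKM in female and 63.1 FPKM in male control roots, and at 7.64 and 4.99 FPKM at 24 h.

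The beta-glucosidase and *SlActin*, far apart in control roots, were not called between the sexes at 12 or 24 h. CL19012 stood at 3844 ± 35.7 FPKM in female and 2471 ± 31.9 FPKM in male roots at 12 h, and at 9739 ± 163 and 9917 ± 248 FPKM at 24 h. CL19537 stood at 56.0 ± 1.32 FPKM in female and 57.4 ± 1.67 FPKM in male roots at 12 h, and at 16.0 ± 0.435 and 10.1 ± 0.295 FPKM at 24 h. Annexin D4 CL17084, higher in female control roots, was called lower at 12 h, at 0.927 ± 0.256 FPKM in female and 3.10 ± 0.673 FPKM in male roots, and higher again at 24 h, at 9.17 ± 1.09 and 1.43 ± 0.129 FPKM. By contrast *KUA1* Unigene12477 was called higher in female roots at both times, with 53.5 ± 0.315 FPKM in female and 10.5 ± 1.10 FPKM in male roots at 24 h, and cytosolic APX Unigene16104 likewise, with 11.9 ± 0.290 and 0.153 ± 0.15 FPKM (SD, n = 3 each).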

How the data were processed

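The authors assembled the root reads with Trinity, clustered contigs into unigenes, and deposited 1 table of FPKM for 253209 rows and 24 libraries. Their methods name RPKM. No source used here states the aligner, strandedness, or read numbers. All columns were matched to samples by their names.

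FPKM of contigs of a cluster were summed. Genes with at least 1 FPKM in at least 3 of the 6 control libraries were fitted as log2(FPKM + 0.5) with limma 3.58.1 in R 4.3.3 (lmFit, eBayes with trend) on these 6 libraries, unscaled, with Benjamini-Hochberg adjustment over all tested genes. A gene was called where the adjusted p was 0.05 or less and the log2 ratio was 1 or more in either direction. The 6 libraries of each NaCl time were fitted alike over the same genes. The change of the sex difference was a contrast over 12 libraries. Family sums were compared by exact permutation. The fit was tested on simulated data. Alternatives were other pseudocounts, filters, and scaling, the most abundant contig only, an adjusted p of 0.01, other groups in the fit, a replicate block, and each replicate left out; 3 further ones were chosen after the data were seen.

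The gene lists are those of the study tables, grouped into families by protein name. Members, lists, and tests were chosen with earlier results of these data known. Named genes were the 5 *NHX* genes and actin, in each family the called members with the largest and smallest ratio and the most abundant member, list genes at 0 in 1 sex and at least 5 FPKM in the other, 4 genes with no name, and the 3 highest and 3 lowest other list genes. CL20529, CL5890, CL4774, CL4614, CL1315, Unigene15071, Unigene13449, and Unigene7100 were chosen after their values were seen. Sums and counts were made with pandas 2.3.3 and numpy 2.4.6 under Python 3.11.15, permutation tests with scipy 1.17.1, and plots with matplotlib 3.10.9.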

Additional observations from a re-analysis of the deposited data

Results flagged for a closer look

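In 3 cases the female minus male difference of an *NHX* gene under NaCl differed from that in control roots past both thresholds of the limma contrast. For CL3276 the log2 difference at 12 h minus that in the control was 1.16 (adjusted p = 1.09e-07). For CL7345 the change at 24 h was 2.44 (adjusted p = 1.65e-09). For Unigene43275 the change was 1.85 at 24 h, where both sexes were near 0 FPKM. This gene passed the filter through the male control libraries alone, so its changes from the control are not support for a difference. Which changes passed depended on scaling. With scaled libraries CL3276 at 12 h was at 0.57 and did not pass, while CL9910 at 24 h (-1.07, adjusted p = 5.53e-09, limma) and Unigene43275 at 12 h (-1.24) did. The 2 times share the control libraries. Groups of 3 libraries were too small for a test of single outlying libraries.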

How the results depend on the processing

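Of the 727 values of named genes under the alternatives, 715 kept direction and call. With stricter filters fewer genes were tested. With at least 1 FPKM in all 6 libraries, 3207 genes were called higher and 4909 lower in female control roots (34.3% of genes so filtered). A mean of at least 10 FPKM gave 1864 and 2716. Under these filters the salt list held 11 and 8 members higher (10 lower under the mean of 10 FPKM), and the reactive oxygen list 4 and 3 higher and 4 and 3 lower. With willow family matches only, chosen after the data were seen, the salt list held 14 higher of 61 measured. Against contig rows, summed genes gave 16968 higher and 13464 lower. Scaling reversed the sums of peroxisomal-type APX (0.0227) and ferritins (0.10), the ratios of CL12578 (0.12) and CL2013 (0.0521), and the 24 h change of CL2217 (-0.47) and CL3276 (-0.57), none of them called before. With the most abundant contig only, CL13878 was at -0.32 and CL2217 at -2.29. Without single replicates, CL12578 lay between -0.0939 and 0.0281, CL13878 between -0.00572 and 0.0530, and the 24 h change of CL3276 between -0.0601 and 0.0624.

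Without single replicates, 16788 to 16944 genes were higher and 13308 to 13483 lower in control roots, and 1546 to 4359 higher and 138 to 1459 lower at 6 h. The replicate block gave 17013 higher and 13507 lower genes in the control and 0 and 0 at 6 h, where 8508 genes had an unadjusted p under 0.05 in limma. Without the block 2622 and 668 were called. Deviations of same-numbered female and male control libraries correlated at -0.015 to -0.008, so these numbers did not pair the libraries. The block changed no other call of a named gene. Without a filter on low values 24335 genes were higher and 16313 lower. The cause of these shifts was not tested, except that stricter filters test fewer genes. Read numbers are unknown, so no limit of detection could be given, and genes near 1 FPKM carry the widest errors.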
